A study of Mus musculus with 8 samples.

Results

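The sites described here were 330 m6A sites of TBLC that stood at a middle to high level in control libraries and kept at least 70% of that level after Virma knockdown. They were taken from the 23354 sites called in all 4 TBLC libraries. Of these, 21927 lay in a named gene that was neither a tRNA gene nor mitochondrial, and 19241 of those, the measured sites, were covered by 20 or more A+G reads in each library. A mean control level of 0.5 to under 0.9 left 10526 sites in 4345 genes, and 330 of them, in 285 genes, made up the resistant set. The other 10196 sites in that range, which kept under 70%, are called comparison sites. Because the set was chosen on the levels in both siVirma and both siNC libraries, those levels and every ratio made from them are given as a description with no test.

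N6-methyladenosine was read at single bases by GLORI, in which unmethylated adenosines are deaminated and read as G while methylated ones are still read as A. The level of a site is its A reads divided by its A+G reads. TBLC grown in MYCP medium received an siRNA against Virma (siVirma) or the control siRNA siNC, with 2 libraries each. EPSC carried a dCas13b-FTO demethylation system with a guide to Gata6 (sgGata6) or a control guide (sgCtrl), and their reads were pooled to 1 value per group. The labels give neither the time of knockdown nor whether replicates were separate cultures, so a p-value here reflects no more than the variation from library to library, which could be technical. Positions are mm39 coordinates as the authors gave them.

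Most m6A on messenger RNA is written by a METTL3 and METTL14 complex, in which VIRMA is a large scaffold subunit that helps steer methylation toward the 3′ part of transcripts. A few RNAs have writers of their own. METTL16 methylates the U6 spliceosomal RNA and hairpins of the mRNA of Mat2a, the enzyme that makes the methyl donor S-adenosylmethionine, and ribosomal RNA has dedicated methyltransferases.

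The knockdown showed in the libraries themselves. Virma had a gene coverage of 24.0 and 22.8 in siVirma, against 40.3 and 38.2 in siNC, 0.91 lower on the log2 scale after median centring (limma adjusted p = 0.000143). The siVirma lists held 41082 and 34739 called sites with 3423268 and 2655963 A+G reads. The siNC lists held 66350 and 61957 sites with 4764955 and 4367999 reads. Of 27 pluripotency markers, 25 and 23 had a called site in siVirma and 26 and 25 in siNC, and of 20 fibroblast markers 16 and 17 in siVirma and 18 in each siNC library. The summed coverage of the fibroblast list was 996 and 849 in siVirma, against 846 and 813 in siNC. That of the pluripotency list was 5226 and 2678 in siVirma, against 5934 and 3824 in siNC. A 2-cell stage list gave 636 and 509 in siVirma, from 14 and 11 genes, against 688 and 685 in siNC, from 15 and 16. A primitive endoderm list gave 1798 and 1362 in siVirma, from 17 and 14 genes, against 1590 and 1483 in siNC, from 17 and 15. Each sum covers only the list genes with a called site in that library, so it also depends on which genes were listed. Over all genes the median coverage was 0.17 higher in siVirma on the log2 scale.

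The resistant sites kept a median of 77.5% of their siNC level, with quartiles of 73.5% and 85.3% and a range of 70% to 136%. Their median level was 0.633 and 0.638 in the siVirma libraries, against 0.816 and 0.823 in the siNC libraries. The comparison sites had medians of 0.287 and 0.292 in siVirma, against 0.7 in each siNC library, and kept a median of 42.2%. Resistance was therefore graded within the set: 202 sites kept under 80%, 73 kept 80% to under 90%, 55 kept 90% or more and 15 of those kept 100% or more. In most of the set the level was still lower after knockdown. The levels in siVirma were both under the lower siNC level at 264 of 330 resistant sites (80%), beside 96.7% of all measured sites, and both over the higher siNC level at 5 sites, beside 0.275% of all measured sites. Among the 55 sites that kept 90% or more, the siVirma levels were both under the lower siNC level at 17.

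**Figure D1:**
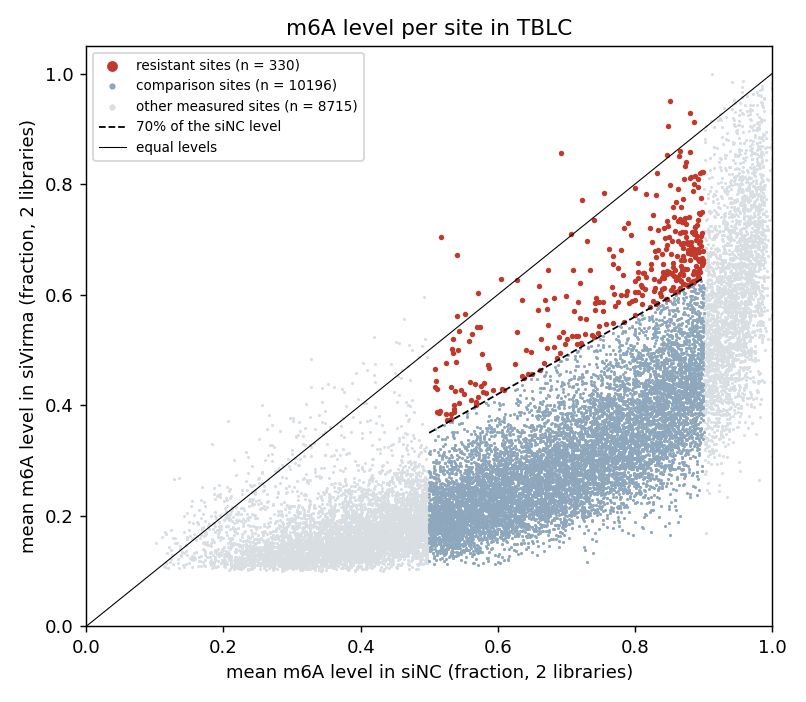
Mean m6A level in siVirma (vertical) against mean level in siNC (horizontal) for every measured TBLC site, each point the mean of 2 libraries per group. The 330 resistant sites (red) lie between siNC levels of 0.5 and 0.9 on or above the dashed line of 70% of the siNC level, and the 10196 comparison sites lie below it.

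The set made up 3.14% of the sites in its siNC range, and that share was uneven. It was 1.84% at siNC levels of 0.5 to 0.6, 1.23% at 0.6 to 0.7, 2.15% at 0.7 to 0.8 and 7.01% at 0.8 to 0.9, where 196 of the 330 sites lay. Read number moved with it too: 5.15% of sites with 20 to 29 reads in their shallowest library were resistant, 3.29% of those with 30 to 49, 1.71% of those with 50 to 99 and 1.69% of those with 100 or more. Median A+G reads at the resistant sites were 48 and 39 in siVirma and 40 and 36 in siNC, against 68 and 54 in siVirma and 51 and 47 in siNC at comparison sites. The part of read number in the selection was not tested. In the set, 74 sites had at least 50 reads in every library, and these kept a median of 83.6%.

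The 70% limit cut a continuous slope rather than a gap. There were 265 sites in the siNC range at 65% to under 70% and 111 at 70% to under 75%. Among sites with at least 50 reads, those just inside were in Bptf (70.4%), a chromatin remodelling subunit, Mosmo (71.1%) and Purb (71.2%), and sites just outside were in Ankhd1 (69.9%) and Inf2 (69.8%). The Bptf site on chromosome 11 at 107002311 had levels of 0.596 and 0.658 in siVirma, against 0.887 and 0.892 in siNC, and the Inf2 site on chromosome 12 at 112578089 had 0.643 and 0.564 in siVirma, against 0.902 and 0.825 in siNC. At both, the siVirma libraries lay below the siNC libraries with no overlap.

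The level limits were also applied to the libraries of 1 replicate number alone, and the kept share was read in the other 2 libraries. The numbers only name libraries here. All 4 libraries still had to hold a called site with enough reads, so these other libraries had a part in which sites could be read. The 488 sites chosen on replicate 1 kept a median of 66.3% in replicate 2, and 43.0% of them again kept at least 70%. The 553 sites chosen on replicate 2 kept 65.5% in replicate 1, and 40.5% again reached 70%. Sites in the same siNC range that were not chosen kept 42.7% and 42.1%, and 3.95% and 3.01% of them reached 70%. With at least 50 reads in the libraries used, the chosen sites kept 72.9% in replicate 2 and 76.3% in replicate 1, and 62.4% and 56.3% of them again reached 70%. Of the 330 resistant sites, 199 kept at least 70% in each replicate number and 315 at least 60%. At 174 sites the lower siVirma level was at least 70% of the higher siNC level. Counts among the 330 are fixed in part by the rule, which used the means of the same libraries. They were not made for the other sites in range.

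**Figure D2:**
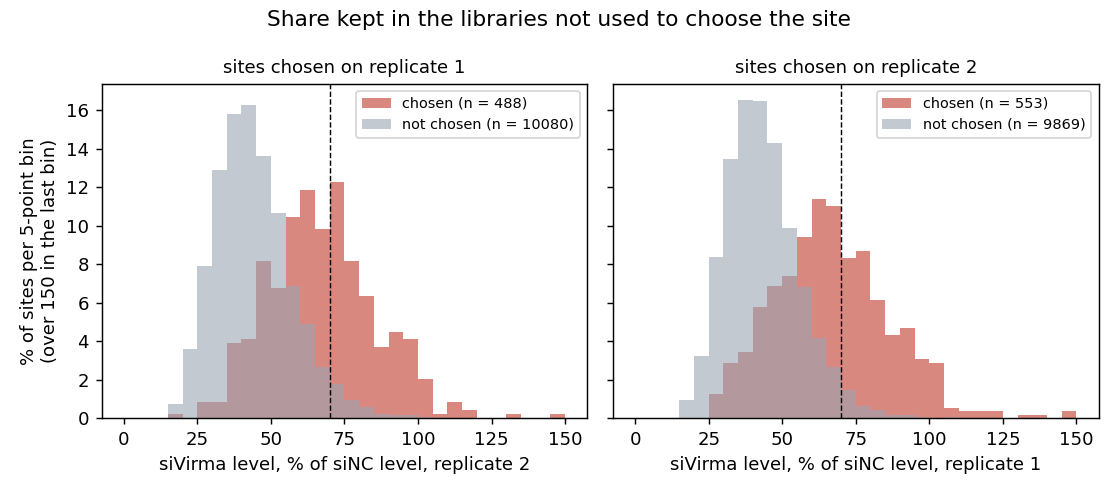
Distribution of the share of the siNC level kept in the replicate to which the level limits were not applied, for sites chosen on replicate 1 (left panel) and on replicate 2 (right panel), as percent of sites per 5-point bin, with values over 150% in the last bin. The chosen sites (red) have medians of 66.3% and 65.5% and spread across the dashed 70% line, while the sites not chosen (grey) have medians of 42.7% and 42.1%.

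Mat2a was the gene with the most resistant sites. All 5 of its measured sites were in the set, on the minus strand of chromosome 6, and they kept 92.0% to 99.3%. The site at 72410270 had levels of 0.707 and 0.736 in siVirma, against 0.781 and 0.787 in siNC, from 357 to 501 A+G reads. The site at 72409936 had 0.632 and 0.549 in siVirma, against 0.644 and 0.627 in siNC. At 72410155 the levels were 0.734 and 0.735 in siVirma, against 0.752 and 0.727 in siNC. Only the first of these had siVirma libraries that lay below the siNC libraries with no overlap. The site at 72410044 had 0.797 and 0.845 in siVirma, against 0.8 and 0.864 in siNC, and the shallowest one, at 72411233, had 0.897 and 0.769 in siVirma, against 0.955 and 0.792 in siNC from as few as 22 reads. At both, the groups overlapped. A sixth Mat2a site, at 72411344, was listed at 0.125 and 0.130 in siNC, near the lowest level of the lists, and in neither siVirma list. The gene coverage of Mat2a was 211 and 171 in siVirma, against 165 and 157 in siNC, a log2 difference of 0.08 that did not pass the limma test (adjusted p = 0.315).

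Small nuclear RNA genes, whose RNAs work mostly in splicing, were another group in which every measured site stayed close to its siNC level. RefSeq types the names of 14 measured sites, each in a different gene with a Gm number, as snRNA. These kept 89.2% to 112% with a median of 98.5%. Of the 14, 6 had siNC levels in range and all 6 were resistant, so no snRNA site was a comparison site. The other 8 stood at 0.9 or more in siNC. Gm23971, on chromosome 11 at 101536727, had 0.859 and 0.861 in siVirma, against 0.877 and 0.855 in siNC, from 602 to 841 reads. Gm25360, on chromosome 1 at 72265428, had 0.882 and 0.823 in siVirma, against 0.840 and 0.852 in siNC. Both overlapped between the groups. Gm25813, on chromosome 8 at 52790111, had 0.865 and 0.947 in siVirma, against 0.862 and 0.835 in siNC, so both siVirma libraries lay above both siNC libraries, the lower of them by less than the gap between the siNC libraries. Such genes exist in near-identical copies, so which copy the reads came from is uncertain, and the RefSeq names do not say which small nuclear RNA each one is.

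Other non-coding and repeated genes were also more frequent in the set than among comparison sites. Genes that RefSeq types as protein-coding held 290 resistant sites (87.9%, against 95.8% of comparison sites). The 18 sites in pseudogenes made up 5.45% of the set and 2.78% of comparison sites, and the 9 in long non-coding RNAs were 11.3% of the 80 sites of that type in range. Of the 330 sites, 34 were in genes that RefSeq gives another type than protein-coding, and 6 were in genes whose names had no match. Among the 55 sites that kept 90% or more, 17 were in genes of another type. The 5S rRNA gene n-R5s25, on chromosome 18 at 34780520, had 0.623 and 0.584 in siVirma, against 0.549 and 0.593 in siNC. Gm26917, a predicted gene without a RefSeq match, held the deepest sites, and the one on chromosome 17 at 40159055 had 0.853 and 0.850 in siVirma, against 0.871 and 0.858 in siNC, from 58866 reads or more. Its second site, at 40159073, had 0.507 and 0.496 in siVirma, against 0.548 and 0.517 in siNC. At both sites of Gm26917 the siVirma libraries lay slightly below the siNC libraries with no overlap, while the 5S rRNA site overlapped. The pseudogene Gm13015 kept 102% and the pseudogene Gm11223 kept 99.6%. Reads of pseudogenes and repeated genes can come from their parent genes or other copies, so their assignment is uncertain.

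**Figure D3:**
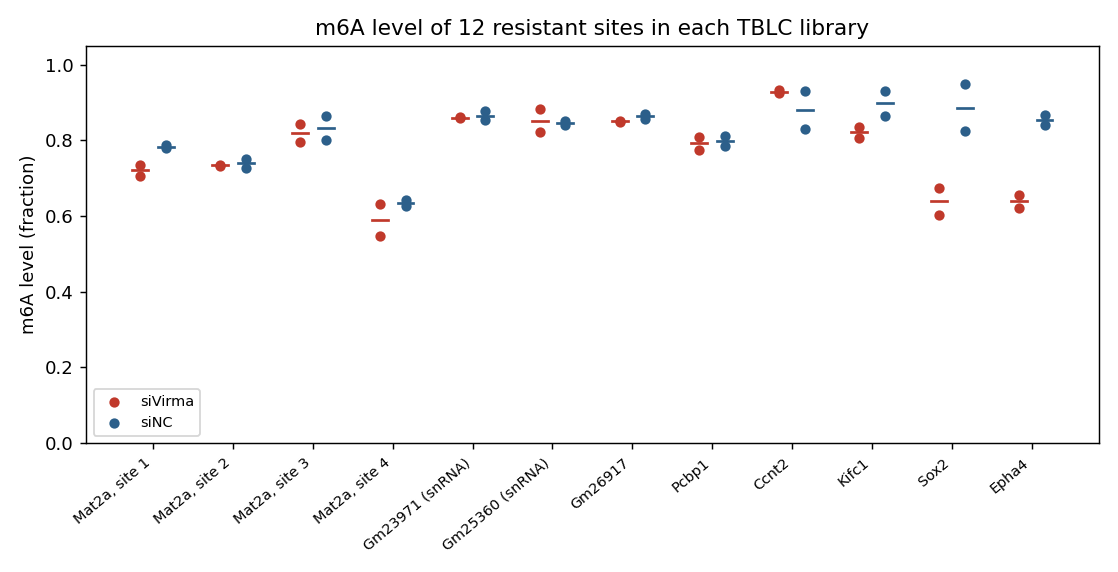
m6A level (fraction, vertical) of 12 resistant sites in each TBLC library, siVirma red and siNC blue, with a short line at the mean of 2 libraries. The 4 Mat2a sites with the most reads, numbered 5′ to 3′, the small nuclear RNA genes, Gm26917 and Pcbp1 keep 92.0% or more of their siNC level, while Sox2 and Epha4 lie lower in siVirma.

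Most genes held a single resistant site, 252 of the 285. In 241 of the 285 there was also a measured site outside the set, and these 1682 sites kept a median of 50.6%. The Ccnt2 site on chromosome 1 at 127731478 kept 106%, with 0.926 and 0.932 in siVirma, against 0.930 and 0.831 in siNC. Ccnt2 encodes cyclin T2, a partner of the transcription elongation kinase CDK9. It also held resistant sites at 127729928 (71.0%) and 127731140 (77.9%), and its 12 measured sites had a median of 57.2%. The site 30 nt downstream of the first, at 127731508, kept 40.4%, with 0.257 and 0.373 in siVirma, against 0.767 and 0.795 in siNC. In Pcbp1, which encodes a poly(C)-binding protein and was singled out after its values were seen, the site on chromosome 6 at 86502049 had 0.809 and 0.776 in siVirma, against 0.787 and 0.812 in siNC. The site 17 nt away, at 86502032, had 0.358 and 0.279 in siVirma, against 0.742 and 0.718 in siNC. The 2 sites thus had similar siNC levels, and they kept 99.1% and 43.6%. In Rbpj, the DNA-binding factor of Notch signalling, sites 6 nt apart kept 83.2% and 35.3%, from mean siNC levels of 0.859 and 0.543.

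**Figure D4:**
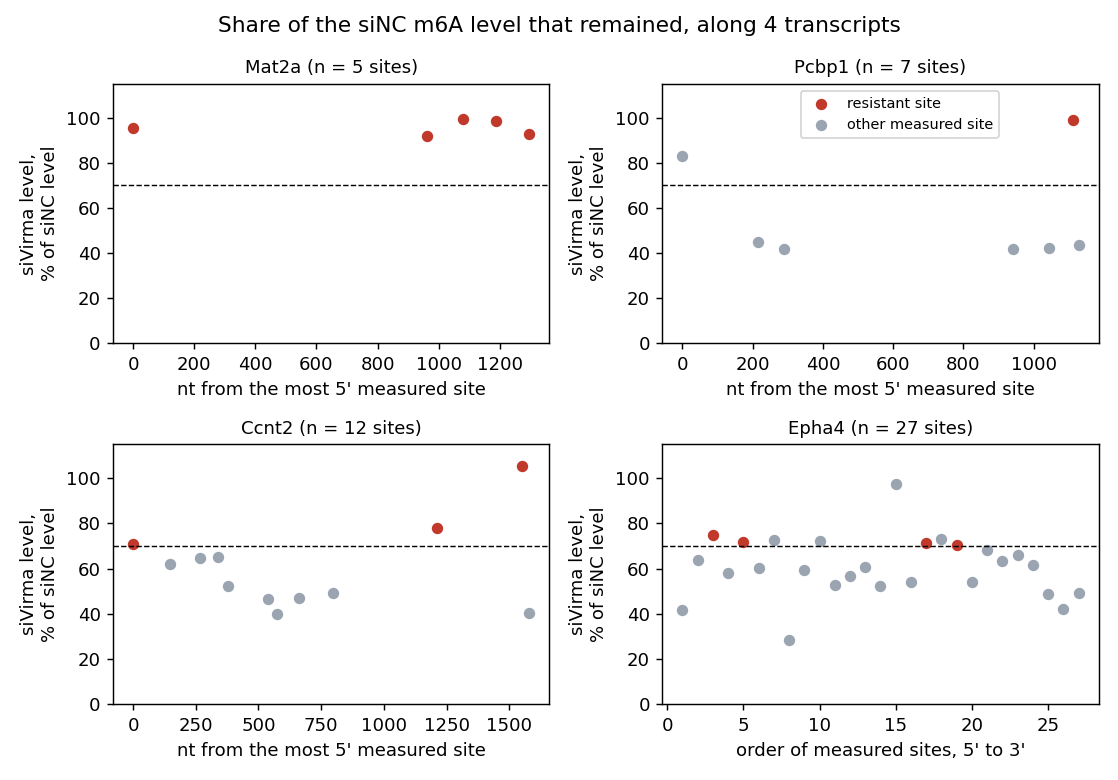
Share of the siNC level that remained in siVirma (percent, vertical) at each measured site of Mat2a, Pcbp1, Ccnt2 and Epha4, placed by distance from the most 5′ measured site, or by order for Epha4. All 5 Mat2a sites (red) lie above 90%, whereas the resistant Pcbp1 site at 99.1% and Ccnt2 site at 106% stand among sites mostly below the dashed 70% line.

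Nearby sites could be read for 97 resistant sites that had a measured site outside the set within 50 nt. The resistant sites kept a median of 76.4% and the nearest such neighbour 48.4%, with quartiles of 41.6% and 59.1%. These neighbours were outside the set by choice, so the gap is fixed in part by the rule. In 9 pairs the neighbour also kept 70% or more and was outside the set only through its siNC level. Sox2, a single-exon pluripotency factor, gave such a pair: the resistant site on chromosome 3 at 34705539 had 0.604 and 0.675 in siVirma, against 0.949 and 0.825 in siNC, and kept 72.1%. The site 7 nt upstream kept 88.3%, with 0.837 and 0.863 in siVirma, against 0.974 and 0.95 in siNC. Comparison sites with a measured site within 50 nt numbered 3342, and that site kept a median of 44.9%.

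Farther sites of the same genes had slightly higher medians than sites of other genes. More than 200 nt from a resistant site, 1300 measured sites in 212 of these genes kept a median of 50.2% (quartiles 41.9% and 60.9%), against 44.0% (36.7% and 54.0%) at 17229 sites in genes without a resistant site. Within the siNC range of 0.5 to 0.9 the medians were 46.9% and 41.8%, above it 70.4% and 62.3%, and below it 48.1% and 42.3%. These values come from the same contrast that the rule used, and no test was made. The quartiles overlapped widely.

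Other genes also held several resistant sites. Epha4, an ephrin receptor, had 4 among 27 measured sites, and these kept 70.3% to 74.8% beside a median of 60.9% over the gene. Its deepest one, on chromosome 1 at 77483688, had 0.656 and 0.623 in siVirma, against 0.841 and 0.867 in siNC. Fbxl5, the iron-regulated ubiquitin ligase subunit, had 3 of 10 measured sites in the set, 2 of them 17 nt apart, and a gene median of 57.4%. Phb, which encodes prohibitin, had 3 of 6 and a median of 74.2%, and its 6 sites kept 63.7% to 85.5%. Rbm12, an RNA-binding protein gene, had 3 of 14 and a median of 50.9%.

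Among those with at least 50 reads, the resistant sites with the highest mean siNC levels lay just under 0.9, the limit set by the rule. In Kifc1, a minus-end-directed kinesin of the spindle, the site on chromosome 17 at 34102379 had 0.836 and 0.808 in siVirma, against 0.931 and 0.866 in siNC. In Espl1, the separase gene, the site on chromosome 15 at 102206953 had 0.841 and 0.803 in siVirma, against 0.864 and 0.932 in siNC. At both, the siVirma libraries lay below the siNC libraries by less than the gap between the siNC libraries. The others were in Gm46877 (74.2%), Nisch (72.7%), the autophagy gene Atg13 (83.3%), the lysosomal adaptor Plekhm1 (83.6%), the mitochondrial RNA polymerase Polrmt (82.5%) and the lipid transfer gene Bltp2 (89.2%). Among sites that kept most, Stmn1, which encodes a microtubule-destabilizing protein, had 0.577 and 0.678 in siVirma, against 0.571 and 0.639 in siNC. The first called site of Tcf4, a basic helix-loop-helix factor, on chromosome 18 at 69652356, had 0.574 and 0.550 in siVirma, against 0.543 and 0.537 in siNC, so that the siVirma libraries were higher with no overlap. The highest kept share with no overlap between the groups in a protein-coding gene, chosen after its values were seen, was 124% in Irf2bp1, on chromosome 7 at 18739107, with 0.881 and 0.833 in siVirma, against 0.667 and 0.717 in siNC from 46 to 84 reads.

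Place along the gene differed between the sets. Called siNC sites of a gene were put in order along the strand, for genes with at least 5. The 274 resistant sites in such genes were spread 25.5%, 26.6%, 22.6%, 15.7% and 9.49% over 5 equal parts of that order, from 5′ to 3′. The 8473 comparison sites were spread 21.4%, 19.8%, 19.8%, 17.9% and 21.1%. The resistant sites were thus scarce at the 3′ end, and 2.55% of them were the last site of their gene, against 7.54% of comparison sites. Among sites with siNC levels of 0.8 to 0.9, an alternative added after seeing the data, the most 3′ of the 5 parts held 7.87% of the resistant sites and 18.9% of comparison sites. The order says nothing of exons or UTRs, since no mm39 annotation was used here, and the sites of genes with a resistant site were spread over more sequence (median span of 6674.5 nt, against 4025 nt for comparison sites).

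**Figure D5:**
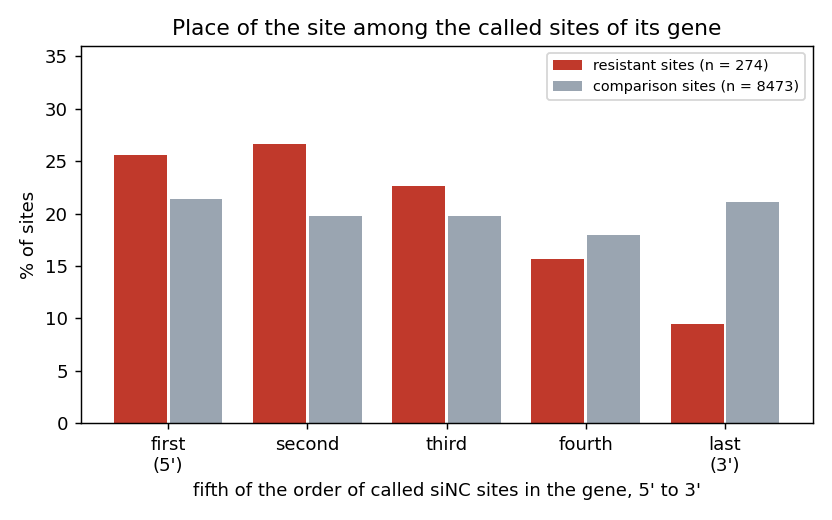
Percent of sites (vertical) in each of 5 equal parts of the 5′ to 3′ order of the called siNC sites of their gene, for 274 resistant sites (red) and 8473 comparison sites (grey). The most 3′ part holds 9.49% of the resistant sites and 21.1% of the comparison sites.

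Spacing differed less. Another siNC site lay within 50 nt of 47.9% of resistant sites, against 53.6% of comparison sites, and within 10 nt of 10.6%, against 12%. Resistant sites lay in genes with a median of 13 called siNC sites, against 10 for comparison sites. At the other extreme, 24 resistant sites (7.27%) were the only called site of their gene, against 2.27% of comparison sites, and 17 of those 24 were in genes of a type other than protein-coding.

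Gene lists were described by the number of their sites in the siNC range that were resistant, beside the 3.14% over all genes. The lists were drawn up with earlier results of these data known. Single-exon genes had 6 of 41 (14.6%), 1 each in Cebpb, Foxd3, Fzd10, Jun, Junb and Sox2, most of them transcription factors. The deepest of them were in Sox2, given above, and in Fzd10, a Wnt receptor gene, which on chromosome 5 at 128680000 had 0.625 and 0.732 in siVirma, against 0.886 and 0.912 in siNC. There the siVirma libraries lay below the siNC libraries with no overlap and differed more from each other than the siNC libraries did. The other 4 kept 73.1% to 85%. The 41 sites kept a median of 54.0%, against 42.6% for all sites in range.

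Among genes of the m6A machinery, the writer complex list had 3 of 17 sites (17.6%), in 2 genes. Rbm15b, an RNA-binding adaptor of the complex, had 0.646 and 0.635 in siVirma, against 0.893 and 0.898 in siNC, at 106762901 on chromosome 9, and a second site at 106763288 that kept 81.4%. Virma itself, on chromosome 4 at 11527085, had 0.658 and 0.625 in siVirma, against 0.773 and 0.835 in siNC, from 38 and 24 reads in siVirma. No site of these overlapped between the groups. Readers and erasers had 1 of 30 (3.33%), in Ythdf3, a cytoplasmic m6A reader. It had 0.656 and 0.7 in siVirma, against 0.878 and 0.887 in siNC, on chromosome 3 at 16258283.

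Regulators of cell identity were near or below the share over all genes, apart from the small 2-cell list. Pluripotency genes had 2 of 101 (1.98%), in Sox2 and in Tet1, a 5-methylcytosine dioxygenase, and primitive endoderm genes had 0 of 22. The Tet1 site on chromosome 10 at 62674026 had 0.631 and 0.596 in siVirma, against 0.795 and 0.827 in siNC, with no overlap. The 2-cell stage list had 3 of 15 (20%), in Usp17lc, Zfp809 and Zscan4a, which kept 70.2%, 84.3% and 72.5%. Zscan4a, a 2-cell stage gene that RefSeq types as a transcribed pseudogene, had 0.3 and 0.476 in siVirma, against 0.554 and 0.517 in siNC. Zfp809, which silences retroviruses, had 0.744 and 0.647 in siVirma, against 0.788 and 0.862 in siNC. In both, the higher siVirma level came close to the lower siNC level. Zscan4a and Usp17lc have near-identical copies, so their reads are uncertain. Polycomb and chromatin regulators had 2 of 109 (1.83%), in the H3K4 methyltransferase genes Kmt2b (88.8%) and Kmt2c (92.2%, from 20 to 26 reads).

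Signalling and response genes gave a few more. Immediate early genes had 4 of 79 (5.06%), in the transcription factor genes Egr1, Fosb, Jun and Junb, which kept 80.1%, 80.7%, 73.1% and 85%. Jun, on chromosome 4 at 94939822, had 0.513 and 0.308 in siVirma, against 0.634 and 0.489 in siNC, and its groups overlapped. Egr1, on chromosome 18 at 34996121, had 0.732 and 0.688 in siVirma, against 0.840 and 0.931 in siNC, with no overlap. Wnt, Notch, Nodal and BMP genes had 3 of 77 (3.90%), in Fzd10, Fzd5 and Rbpj. Rbpj, on chromosome 5 at 53810982, had 0.691 and 0.738 in siVirma, against 0.875 and 0.842 in siNC, with no overlap. Splicing factors had 0 of 46 and cell cycle and p53 genes 0 of 42. A list of long non-coding RNAs, most of them known as nuclear, had 1 of 11 (9.09%), in Norad, which binds Pumilio proteins in the cytoplasm. Fibroblast markers had 2 of 16 (12.5%), both in the collagen gene Col6a3. Its site at 90695078 on chromosome 1 had 0.473 and 0.375 in siVirma, against 0.586 and 0.571 in siNC, and its site at 90706915 had 0.417 and 0.449 in siVirma, against 0.481 and 0.583 in siNC. Neither overlapped between the groups.

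Gene coverage, which the rule did not use, was compared over 6735 genes with limma on log2 values. Of the 285 genes with a resistant site, 29 (10.2%) were higher in siVirma and 50 (17.5%) lower at an adjusted p of 0.05, beside 9.9% higher and 14.1% lower over all genes. Median centring removed the shift of 0.17, and without it 30 (10.5%) were higher and 2 (0.702%) lower, beside 9.78% and 0.475% over all genes. Without siVirma replicate 1 the counts were 9 higher (3.16%) and 18 lower (6.32%), beside 2.27% and 2.81% over all genes. Without siNC replicate 1 they were 15 (5.26%) and 35 (12.3%), beside 5.45% and 7.65%, and without siNC replicate 2 they were 15 (5.26%) and 30 (10.5%), beside 5.43% and 6.73%. Col6a3 had 63.4 and 53.9 in siVirma, against 23.9 and 22.7 in siNC, a log2 difference of 1.16 ± 0.05 (SE, limma adjusted p = 1.69e-05). Tnc, another matrix gene, was 0.59 ± 0.05 higher (limma adjusted p = 0.00049), and Phb was lower by a log2 difference of -0.51 ± 0.05 (limma adjusted p = 0.000837). Col6a3 is on the fibroblast list, whose summed coverage is given above, and in these bulk libraries a change in the number of cells of a type and a change in RNA per cell cannot be told apart. The part of that list in the levels of Col6a3 and Tnc was not tested.

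The conversion rate that the lists give per gene had a lower median in genes with a resistant site. Its median was 0.984 and 0.983 in siVirma and 0.975 in each siNC library, against 0.988 in each siVirma library and 0.982 in each siNC library for other measured genes. The lists do not say how this rate was computed or whether methylated adenosines count in it. The part of the rate in the levels was not tested.

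In EPSC, which are other cells with another perturbation, 80 of the 330 resistant sites (24.2%) and 44.7% of comparison sites were listed. The resistant sites also had fewer reads in TBLC, as given above, and the part of read number in the listing was not tested. With at least 20 pooled reads in each group, 31 resistant sites had a median level of 0.786 in sgGata6 and 0.760 in sgCtrl, and 1813 comparison sites 0.611 and 0.607. The median siNC level in TBLC was 0.866 at those 31 sites and 0.684 at the 1813 comparison sites, a gap that the choice of the set had already made. All EPSC sites with these reads had a lower median sgCtrl level, 0.222. A difference of 0.15 or more between the guides was seen at 1 resistant site in the higher direction (3.23%), in Socs2. That share was 6.67% of all EPSC sites and 9.10% of comparison sites. In the lower direction it was seen at 3 resistant sites (9.68%), in Fbxl5, Atmin and Siah1-ps1, beside 8.19% of all EPSC sites and 9.38% of comparison sites. With 1 value per group there is no replicate check of these.

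The 4 resistant sites with the most EPSC reads, counted in the shallower group, were 2 small nuclear RNA sites and both Gm26917 sites. Gm23971 stood at 0.786 in sgGata6 (Wilson 95% interval 0.735 to 0.830) and 0.735 in sgCtrl (0.689 to 0.776), and Gm25360 at 0.801 in sgGata6 (0.727 to 0.860) and 0.795 in sgCtrl (0.722 to 0.852). Gm26917 stood at 0.837 in sgGata6 (0.830 to 0.844) and 0.895 in sgCtrl (0.890 to 0.899) at 40159055, and at 0.468 in sgGata6 (0.457 to 0.479) and 0.575 in sgCtrl (0.566 to 0.584) at 40159073. The intervals of the 2 small nuclear RNA genes overlapped between the guides and those of Gm26917 did not. All these intervals reflect the counting of reads alone, and reads lacking molecular identifiers may be copies of one molecule. Mat2a stood at 0.9 in sgGata6 (0.769 to 0.960) and 0.923 in sgCtrl (0.759 to 0.979) at 72410270, and at 0.833 in sgGata6 (0.681 to 0.921) and 0.828 in sgCtrl (0.655 to 0.924) at 72409936. The levels of Mat2a in the pooled EPSC thus overlapped between the guides.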

How the data were processed

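GLORI libraries were made from mRNA, per the labels' protocols, and the submitters' processing notes name the build mm39. The sources used here name no aligner or site caller. The deposited lists give counts of A+G and A reads per called site and the level as a fraction. They hold sites with at least 15 A+G reads, 5 A reads and a level of 0.1, as seen from the values. The deposited p-values of sites were not used. Per the file headers, each list also holds a coverage signal and a conversion fraction for every gene. How these were computed is not given in the sources. The deposited EPSC table holds A read counts and A+G coverage pooled per group.

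Group levels are means of 2 libraries. Gene coverage was tested with limma 3.58.1 in R 4.3.3 on median-centred log2 values with Benjamini-Hochberg adjustment, over genes listed in all 4 libraries, and the fit was tested on simulated data. Sites and figures used Python 3.11.15, numpy 2.4.6, pandas 2.3.3, scipy 1.17.1 and matplotlib 3.10.9. Gene types were matched by name to a RefSeq table of another build, GRCm38.p6, whose coordinates were not used. A planned description of sequence around the sites was not made, since no mm39 genome was used here.

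The sites and gene lists were chosen with earlier results of these data known. Named sites were, with at least 50 reads in every library, the 8 that kept most, the 8 with the highest siNC level and the 3 on either side of the 70% limit. The 6 genes with the most resistant sites, genes on the lists and the 4 sites with the most EPSC reads were added. Of these, 2 sites per list at most are given by library, and 1 site just outside the limit is not reported here. Alternatives changed the limits, the reads required, the libraries and the centring.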

Additional observations from a re-analysis of the deposited data

How the results depend on the processing

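The number of resistant sites followed its limits: 997 at a kept share of 60% or more, 128 at 80% or more, 517 with at least 15 reads, 74 with at least 50 reads, and 134 at siNC levels of 0.5 to under 0.8. Leaving out 1 library in turn gave 452 to 494 sites, of which 242 to 278 were among the 330. The median kept share was 66.3% and 65.5% for sites chosen on 1 replicate number and read in the other, 83.6% with at least 50 reads, and 78.1% to 79.2% with 1 library left out. Another siNC site lay within 10 nt of 10.6% and within 200 nt of 80% of them. Other sites of the same genes kept 50.6% at any distance and 48.7% beyond 1000 nt. Without centring, 2 of the 285 genes (0.702%) had lower coverage at a limma adjusted p of 0.05, beside 0.475% over all genes. A fit without 1 library keeps only 1 library in a group, and the shares over all genes changed with it as well. Leaving out 1 library gave 9 to 28 genes with higher and 18 to 52 with lower coverage. Of 45 alternatives, 23 moved their value by less than the spread or by under 1.5 times, 5 of them added after seeing the data. The 23 include the numbers of resistant sites with 1 library left out. The other 22 moved their value further. The causes of these shifts were not tested.

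The labels do not say that a replicate number marks a shared culture or day, so the numbers were not taken to pair the libraries. Deviations from the group means correlated at 0.15 between same-numbered libraries, and 2 pairs cannot settle the pairing. With the replicate number as a block, 36 genes with a resistant site (12.6%) were higher and 65 (22.8%) lower in coverage, beside 12.8% and 20.4% over all genes. A library with 20 reads at a site sets a coarse level, and 146 of the 330 sites had under 30 reads in at least 1 library, so their single values are less reliable than those of the 74 deep sites.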

Other observations

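Of the 2 resistant sites of Poglut1, a glycosyltransferase gene that modifies Notch, 1 was chosen after its values were seen. On chromosome 16 at 38346399 it stood at a mean of 0.787 in siVirma and 0.885 in siNC, and kept 89.0%. In EPSC the same position stood at 0.333 in sgGata6 (Wilson 95% interval 0.198 to 0.504) and 0.185 in sgCtrl (0.0818 to 0.367), from 33 and 27 reads. All other resistant sites with at least 20 EPSC reads in both groups stood at 0.468 or more in both.

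Of the 14 small nuclear RNA sites, the 8 left out for siNC levels of 0.9 or more behaved alike in size. Gm22973, on chromosome 12 at 59087150, had 0.896 and 0.867 in siVirma, against 0.876 and 0.929 in siNC, and kept 97.7%. In EPSC it stood at 0.867 in sgGata6 and 0.730 in sgCtrl, from 98 and 141 reads. The snoRNA site of Snord37, outside the range at a mean siNC level of 0.358, had 0.165 and 0.135 in siVirma, against 0.311 and 0.406 in siNC, and kept 41.8%. The other measured snoRNA site, in Snora64, had 0.120 and 0.172 in siVirma, against 0.193 and 0.171 in siNC, and kept 80% with overlap between the groups.

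Ppm1b, a protein phosphatase gene singled out after its values were seen, showed the span of responses within a short stretch. Its site on chromosome 17 at 85301443 had 0.829 and 0.799 in siVirma, against 0.882 and 0.892 in siNC, and kept 91.8%. The site 12 nt upstream kept 55.1%, and the site at 85301732 kept 78.9% while the site 6 nt downstream of it kept 45.6%.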
